A study of Rattus norvegicus with 36 samples.

Results

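Liver gene expression was compared between the 2 highest doses of decabromodiphenyl ether (decaBDE), a brominated flame retardant, in male Harlan Sprague Dawley rats. The comparison set the 6 arrays of the 959 mg/kg group against the 6 arrays of the 95.9 mg/kg group, 12 of the 36 arrays of the study, by their sample titles. The other 24 arrays came from vehicle, 0.1, 0.959 and 9.59 mg/kg rats, with 6 arrays at each dose. Rats entered the study at 7 weeks of age and were gavaged with corn oil at 5 ml/kg on 5 consecutive days, with the stated dose of decaBDE in the oil or with oil alone. RNA came from the left liver lobe, taken 1 day after the last dose, so every value belongs to 1 time point after a short exposure. The labels do not state that each array is a separate rat, and p-values then measure the spread between these arrays.

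The aryl hydrocarbon receptor (AhR) is a cytosolic receptor for planar aromatic compounds. When a ligand binds, it enters the nucleus, pairs with ARNT and binds DNA at sites with the core letters GCGTG, from which it drives Cyp1a1, Cyp1a2 and Cyp1b1. In the livers of untreated rats Cyp1a2 mRNA is already abundant, whereas Cyp1a1 is low until the receptor is engaged. The receptors CAR and PXR form the other main route by which liver responds to foreign compounds, and their targets include the Cyp2b and Cyp3a enzymes, conjugating enzymes and export pumps.

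Across this step, Cyp1a1 and Cyp1a2 rose, and no other probe set of the 31042 tested passed. Cyp1a1 was 8.49-fold higher at 959 than at 95.9 mg/kg, and Cyp1a2 was 1.25-fold higher. Genes driven by CAR and PXR had a median log2 difference of 0.03, and 0 of 32 passed. The 2 calls were 0.00644% of all probe sets, by limma's moderated test with Benjamini-Hochberg adjustment at 0.05, and both were higher at 959 mg/kg. At an unadjusted p under 0.05 the test gave 1483 probe sets, which is 4.78%, with 939 (3.02%) higher and 544 (1.75%) lower at 959 mg/kg.

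Values are log2 signals, and every difference below is log2 at 959 minus log2 at 95.9 mg/kg, so that 1 unit is a doubling. The median difference over all probe sets was 0.00297, and 51.5% of them were above 0. The central 95% of differences lay between -0.205 and 0.183. The 95% interval of the difference lay wholly inside ±0.5 for 29822 probe sets (96.1%), and inside ±1 for 30928 (99.63%). Of the 14217 genes, each given by its brightest probe set, 13610 (95.7%) had an interval inside ±0.5. An absolute difference of at least 0.5 was seen in 53 probe sets, 20 higher and 33 lower at 959 mg/kg, and of at least 1 in 9. Of these 9, Cyp1a1 passed and the other 8 did not, with adjusted p-values of 0.977 or more.

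**Figure D1:**
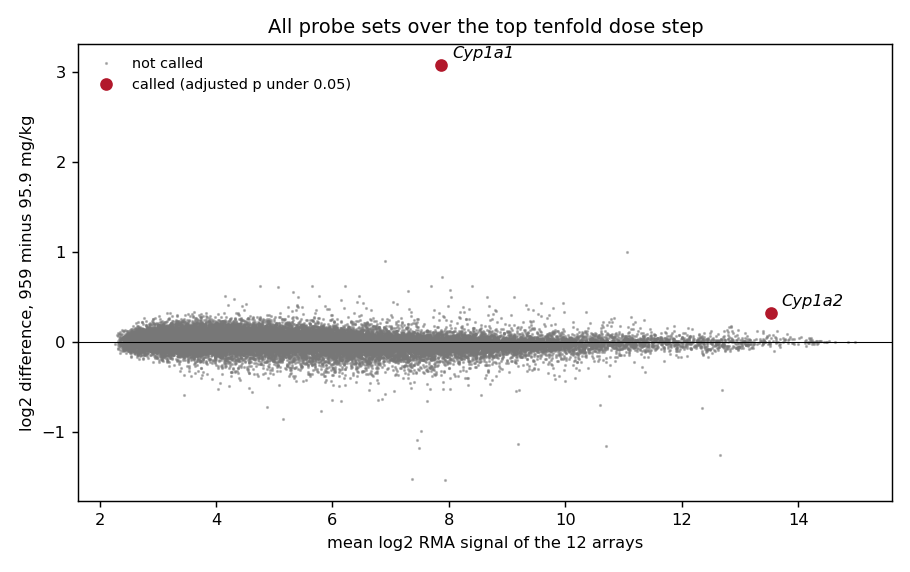
Each point is 1 of 31042 probe sets, with the mean log2 signal of the 12 arrays on the x axis and the log2 difference (959 minus 95.9 mg/kg) on the y axis. Cyp1a1 at 3.09 stands far above the band of points, and Cyp1a2 at 0.32 lies above the narrow band of bright probe sets.

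Measures of array quality overlapped between the groups. The 3' minus 5' log2 difference of the actin control probe sets, a measure of RNA integrity, averaged 1.14 ± 0.07 at 959 and 1.17 ± 0.08 at 95.9 mg/kg (SD, n = 6 each; two-sided exact permutation p = 0.487). That of GAPDH averaged -0.09 ± 0.04 at 959 and -0.10 ± 0.05 at 95.9 mg/kg (exact permutation p = 0.848). Liver identity was plain in both groups, since albumin mRNA (Alb) stood at 14.98 in both, and 16 hepatocyte markers had differences between -0.04 and 0.10. The first principal component of the 12 arrays held 14.6% of the variance, and the 959 mg/kg array of replicate 1 lay farthest out on it. Without that array the medians of 8 of the 29 gene lists described below changed sign. Values without it are given beside some of the lists and genes that it moved, not beside all of them.

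Cyp1a1 encodes a monooxygenase that oxidises polycyclic aromatic compounds and is the classical reporter of AhR activity. Its log2 signal was 9.61, 9.60, 9.61, 8.39, 9.19 and 10.06 in the 6 arrays at 959 mg/kg. At 95.9 mg/kg the signal was 5.83, 7.26, 6.46, 6.85, 5.37 and 6.18. The groups did not overlap, and the lowest array at 959 mg/kg was 1.13 log2 units above the highest at 95.9 mg/kg. All 6 arrays lay above all 6 for 54 probe sets (0.174%). The means were 9.41 ± 0.57 and 6.32 ± 0.69 (SD, n = 6 each) at 959 and 95.9 mg/kg, a log2 difference of 3.09 (SE 0.222, 95% interval 2.64 to 3.54, limma adjusted p = 2.25e-11). On the linear scale the rise was 8.49-fold, with an interval of 6.21 to 11.6. The spread between arrays was itself wide, at 3.17-fold from lowest to highest at 959 mg/kg and 3.73-fold at 95.9 mg/kg. In whole liver RNA, more cells with the transcript and more transcript per cell cannot be told apart.

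At lower doses Cyp1a1 was near its vehicle level. The means were 4.69 for vehicle, 4.77 at 0.1, 4.68 at 0.959 and 4.70 at 9.59 mg/kg, before 6.32 at 95.9 and 9.41 at 959 mg/kg. The 3 lowest doses thus lay within 0.1 log2 units of vehicle, with SDs of 0.17 to 0.28.

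Cyp1a2 metabolises aromatic amines and caffeine and lies next to Cyp1a1 in the genome. Its log2 signal was 13.73, 13.76, 13.66, 13.65, 13.65 and 13.68 in the 959 mg/kg arrays. In the 95.9 mg/kg arrays it was 13.16, 13.32, 13.54, 13.44, 13.28 and 13.45. Again every array at the higher dose was above every array at the lower, as in 0.174% of all probe sets, here with a gap of 0.109. The 959 mg/kg arrays lay closer together than the 95.9 mg/kg arrays. The means were 13.69 ± 0.04 at 959 and 13.37 ± 0.14 at 95.9 mg/kg (SD, n = 6 each), a log2 difference of 0.32 (SE 0.0539, interval 0.214 to 0.432, adjusted p = 0.0121). This is a 1.25-fold rise with an interval of 1.16 to 1.35. The vehicle mean was already 13.16 ± 0.06 (SD, n = 6), on arrays whose values ran from 2.02 to 15. How far a signal this high still follows its transcript was not tested.

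The Cyp1a2 call was less secure than that of Cyp1a1. With only the 12 arrays in the fit the difference was the same and the adjusted p was 0.905. The call was also lost when any 1 of 5 arrays was left out, with adjusted p-values of 0.0556 and 0.07 without replicates 1 and 2 at 959 mg/kg, and of 0.0868, 0.0601 and 0.078 without replicates 1, 2 and 5 at 95.9 mg/kg. The difference stayed between 0.28 and 0.36 when each array in turn was left out.

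**Figure D2:**
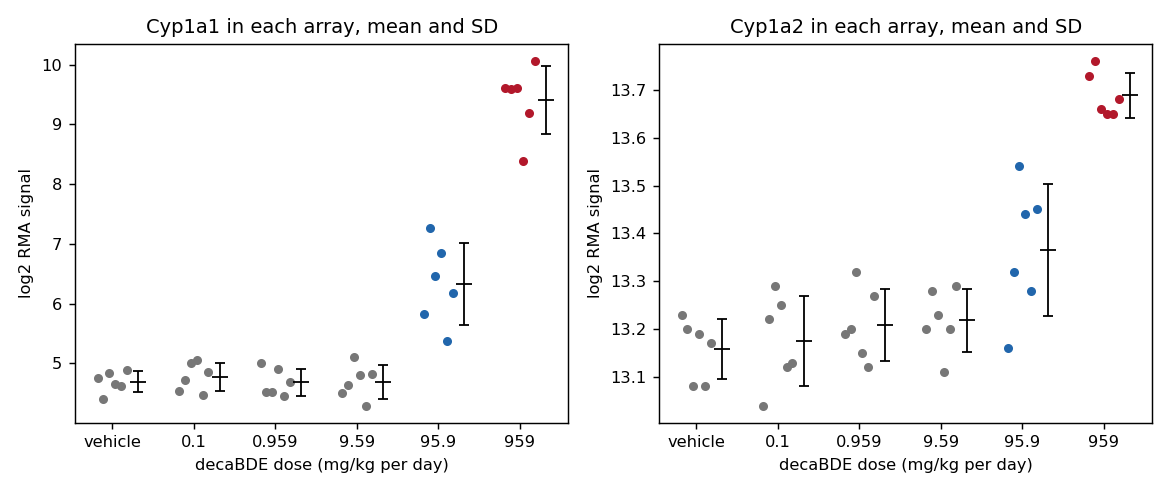
Log2 signal of Cyp1a1 (left) and Cyp1a2 (right) in each of the 36 arrays by daily dose, with bars for the mean and SD of 6 arrays. Cyp1a1 is flat up to 9.59 mg/kg, while the Cyp1a2 mean is already 13.16 in vehicle and 13.69 at 959 mg/kg.

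Promoter sequence from RefSeq (GRCr8), from 250 bases before to 50 after the annotated start, was available for Cyp1a2 and for Cyp1b1, a target of the same receptor, and these are set side by side because the first was called and the second was not. The difference between their responses was not tested, and their 95% intervals overlap. Capitals mark TATAAA in the first and GCGTG, or CACGC on the other strand, in the second. The Cyp1a2 window is chr8:66978100-66978399 on the minus strand, and the Cyp1b1 window is chr6:21094315-21094614 on the plus strand.
Cyp1a2: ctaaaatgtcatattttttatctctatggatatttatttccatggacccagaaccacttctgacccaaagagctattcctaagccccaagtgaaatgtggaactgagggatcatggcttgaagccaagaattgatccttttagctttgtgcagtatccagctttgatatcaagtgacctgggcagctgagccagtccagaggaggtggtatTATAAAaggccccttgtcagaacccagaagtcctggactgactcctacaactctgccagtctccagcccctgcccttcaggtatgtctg
Cyp1b1: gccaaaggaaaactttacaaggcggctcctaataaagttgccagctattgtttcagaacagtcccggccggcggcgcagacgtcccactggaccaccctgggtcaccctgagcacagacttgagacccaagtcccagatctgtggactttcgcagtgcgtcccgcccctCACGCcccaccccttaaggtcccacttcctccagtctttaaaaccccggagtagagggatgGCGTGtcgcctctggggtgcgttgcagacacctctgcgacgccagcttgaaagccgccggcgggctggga
The Cyp1a2 window, of the gene that rose, holds TATAAA beginning 39 bases before the start and no GCGTG on either strand. The Cyp1b1 window holds GCGTG beginning 20 bases before the start and CACGC beginning 81 bases before it. GCGTG occurs on either strand in 9939 of 33469 rat promoter windows of this length (29.7%), and TATAAA in 4760 (14.2%), so the letters alone are common. Sequence farther from the start was not searched, so a window without GCGTG does not show that the gene lacks AhR sites.

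The steps below the top one were fitted in the same model. From 9.59 to 95.9 mg/kg, Cyp1a1 again rose, by 1.63 on the log2 scale (SE 0.222, adjusted p = 0.000407), and it was the only call among 31042 probe sets (0.00322%), with 2041 (6.57%) at an unadjusted p under 0.05. Cyp1a2 had a difference of 0.15 over that step (adjusted p = 0.652). From 0.959 to 9.59 mg/kg the differences were 0.01 for Cyp1a1 and 0.01 for Cyp1a2, and 1 probe set, with no gene symbol, was called (0.00322%; 7.62% at an unadjusted p under 0.05). The top and the upper step share the 95.9 mg/kg arrays.

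A contrast of the top step minus the upper step asked whether any probe set moved by different amounts over the last 2 steps. Cyp1a1 gave 1.46 (SE 0.384, limma unadjusted p = 0.000562), which did not pass (limma adjusted p = 0.886). No probe set was called by that contrast, and 1624 (5.23%) had an unadjusted p under 0.05. Against the step from 0.959 to 9.59 mg/kg, which shares no array with the top step, the contrast gave 3.07 for Cyp1a1 (SE 0.313, adjusted p = 4.24e-07), the 1 call in 31042 (0.00322%), with 2045 (6.59%) at an unadjusted p under 0.05. Cyp1a2 gave 0.31 in that contrast (SE 0.0762, adjusted p = 0.368). The Cyp1a1 response was therefore larger over the top step than over the middle one. Its size over the last 2 steps was not told apart after adjustment over all probe sets.

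Of 14 measured AhR targets, Cyp1a1 and Cyp1a2 passed, 9 of 14 differences were above 0, and the median was 0.0659 against 0.00297 over all probe sets. Cyp1b1, which acts mainly outside the liver, averaged 5.08 at 959 and 5.00 at 95.9 mg/kg, a difference of 0.08 (interval -0.0808 to 0.239). Aldh3a1, an aldehyde dehydrogenase, averaged 3.23 at both doses, with a difference of 0.00 (interval -0.147 to 0.156), close to the low end of the signal range. Tiparp, which modifies AhR by ADP-ribosylation and dampens it, had a difference of -0.08 (interval -0.416 to 0.248). Ahrr, the AhR repressor, had a difference of -0.04 (interval -0.19 to 0.108) at a level of 3.26 and 3.30 at 959 and 95.9 mg/kg. The flavin monooxygenase Fmo1 had 0.17 and xanthine dehydrogenase, Xdh, 0.08.

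Nqo1, a quinone reductase driven by both AhR and NRF2, had the next largest difference in the AhR list. Its 959 mg/kg arrays read 9.98, 8.22, 8.04, 7.93, 7.80 and 7.86, and the 95.9 mg/kg arrays 7.41, 7.46, 8.15, 7.96, 7.70 and 7.68. The groups overlapped, and 1 array, replicate 1 at 959 mg/kg, lay far above all others. The means were 8.31 and 7.72 at 959 and 95.9 mg/kg, a difference of 0.58 (SE 0.218, adjusted p = 0.977), and without that array the Nqo1 difference was 0.25. Without it the AhR list had 1 call and a median of 0.0479.

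The proteins that carry the AhR signal differed little. Ahr itself averaged 5.68 and 5.54 at 959 and 95.9 mg/kg, a difference of 0.13 (interval -0.231 to 0.499). Its partner Arnt had -0.06, the cytosolic chaperone Hsp90ab1 had -0.12 and its co-chaperone Ptges3 had -0.01. The other probe sets of Ahr and Hsp90ab1 had the opposite sign, at -0.05 and 0.07. In all, 0 of 9 measured members passed (0.00644% of all probe sets did), 3 were above 0, and the median was -0.0267.

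Over all 36 arrays, the genes whose log2 signal followed Cyp1a1 most closely were Cyp1a2 (Pearson r 0.92), Cyb5a (0.674), Nqo1 (0.614), Obp1f (0.594) and Cyp2c6v1 (0.578). These r values are descriptions, since the arrays share the dose series. Without the 6 arrays at 959 mg/kg they were 0.663, 0.568, 0.313, 0.385 and 0.506 for the same genes. Cyb5a, the cytochrome b5 that passes electrons to P450 enzymes, had a difference of 0.03 over the top step. Cyp2c6v1, a P450 in the list of CAR and PXR targets, had 0.03, and neither passed. The Cyp2c6v1 mean was 13.78 for vehicle and 14.21 at 959 mg/kg.

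Within a dose group, a relation between Cyp1a1 and Cyp1a2 was not detectable over 6 arrays. Pearson's r was 0.47 at 959 mg/kg (permutation p = 0.353, adjusted 0.557) and 0.404 at 95.9 mg/kg (permutation p = 0.418, adjusted 0.557), over 6 arrays each. Spearman's rho was 0.486 and 0.429 at 959 and 95.9 mg/kg (permutation p = 0.356 and 0.419, adjusted 0.714 for both). Without the 2 arrays farthest from the median Cyp1a1 signal, r was 0.617 and 0.703. For Cyp1a1 with the probe set shared by Cyp2b1 and Cyp2b2, r was -0.469 at 959 mg/kg (p = 0.343 by permutation, adjusted 0.557) and 0.193 at 95.9 mg/kg (p = 0.707, adjusted 0.707). The matching rho values were -0.314 (p = 0.564) and 0.2 (p = 0.714, both adjusted 0.714), and r without 2 arrays was -0.596 and 0.999. The 4 relations were adjusted together.

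Among the targets of CAR and PXR, 0 of 32 measured members passed, where 0.00644% of all probe sets did. With 2 calls in all, a list without a call says little about its members. Of the 32, 20 were above 0 and 12 below, against 51.5% of all probe sets above 0. The differences ran from -0.171 to 0.379 with a median of 0.03. For 26 of the 32 the 95% interval lay inside ±0.5. The probe set shared by Cyp2b1 and Cyp2b2, the phenobarbital-inducible P450 enzymes of rat liver, was at 13.25, 13.59 and 13.83 at 959 mg/kg (lowest, median and highest of 6 arrays) and at 13.26, 13.53 and 13.69 at 95.9 mg/kg. The groups overlapped almost wholly, and the difference was 0.05 (interval -0.311 to 0.407). As for Cyp1a2, how far a signal this high still follows its transcript was not tested. Its mean was 10.96 for vehicle, 11.45 at 0.1, 13.04 at 0.959, 13.52 at 9.59, 13.51 at 95.9 and 13.56 at 959 mg/kg, and the means of the 3 highest doses lay within 0.05 of each other. Over the step from 0.1 to 0.959 mg/kg this probe set had risen by 1.59 (SE 0.177, adjusted p = 4.02e-06), 1 of 2 calls in that step (0.00644%; 4.71% at an unadjusted p under 0.05), and the difference between that step and the top one was not tested.

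Cyp3a23-3a1, a PXR-inducible P450 and the second call between 0.1 and 0.959 mg/kg, averaged 13.47 at 959 and 13.43 at 95.9 mg/kg, a difference of 0.05 (interval -0.0867 to 0.178). Cyp3a18 had 0.02 and Cyp3a9 had -0.03, with an interval of -0.673 to 0.617 that is too wide to bound its change tightly. Cyp2c6v1 had 0.03 and Cyp3a2, a male-predominant P450, 0.01, both at a mean signal of 14.21 at 959 mg/kg. Epoxide hydrolase, Ephx1, averaged 13.18 and 13.14 at 959 and 95.9 mg/kg, a difference of 0.03 (interval -0.108 to 0.177). How far signals as high as those of Cyp3a23-3a1, Cyp2c6v1, Cyp3a2 and Ephx1 follow their transcripts was not tested. The carboxylesterase Ces2c had -0.01 (interval -0.251 to 0.233).

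Among conjugating enzymes and pumps, the probe sets shared by several Ugt1a glucuronosyltransferases had 0.00 (interval -0.1 to 0.0995) and 0.04 (interval -0.0646 to 0.154). Ugt2b1 had -0.02 and, without replicate 2 at 959 mg/kg, 0.07, at a similarly high mean signal of 13.29 at 959 mg/kg. Abcc3, which exports glucuronides to blood, averaged 6.41 and 6.32 at 959 and 95.9 mg/kg, a difference of 0.09 (interval -0.285 to 0.456), and Abcc2, which exports them to bile, had -0.03. The receptors' own transcripts had 0.15 for CAR (Nr1i3) and 0.11 for PXR (Nr1i2).

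Proteins that P450 enzymes depend on did not pass either. Por, the reductase that supplies electrons to microsomal P450 enzymes, averaged 9.07 and 8.87 at 959 and 95.9 mg/kg, a difference of 0.20 (SE 0.103, adjusted p = 0.977), and its second probe set had 0.28. Alas1, the first enzyme of haem synthesis, averaged 10.97 and 10.71, a difference of 0.26 (SE 0.178, adjusted p = 0.977). For Por 2 of the 959 mg/kg arrays were above all 95.9 mg/kg arrays and 1 was below all of them, and for Alas1 these counts were 4 and 2.

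**Figure D3:**
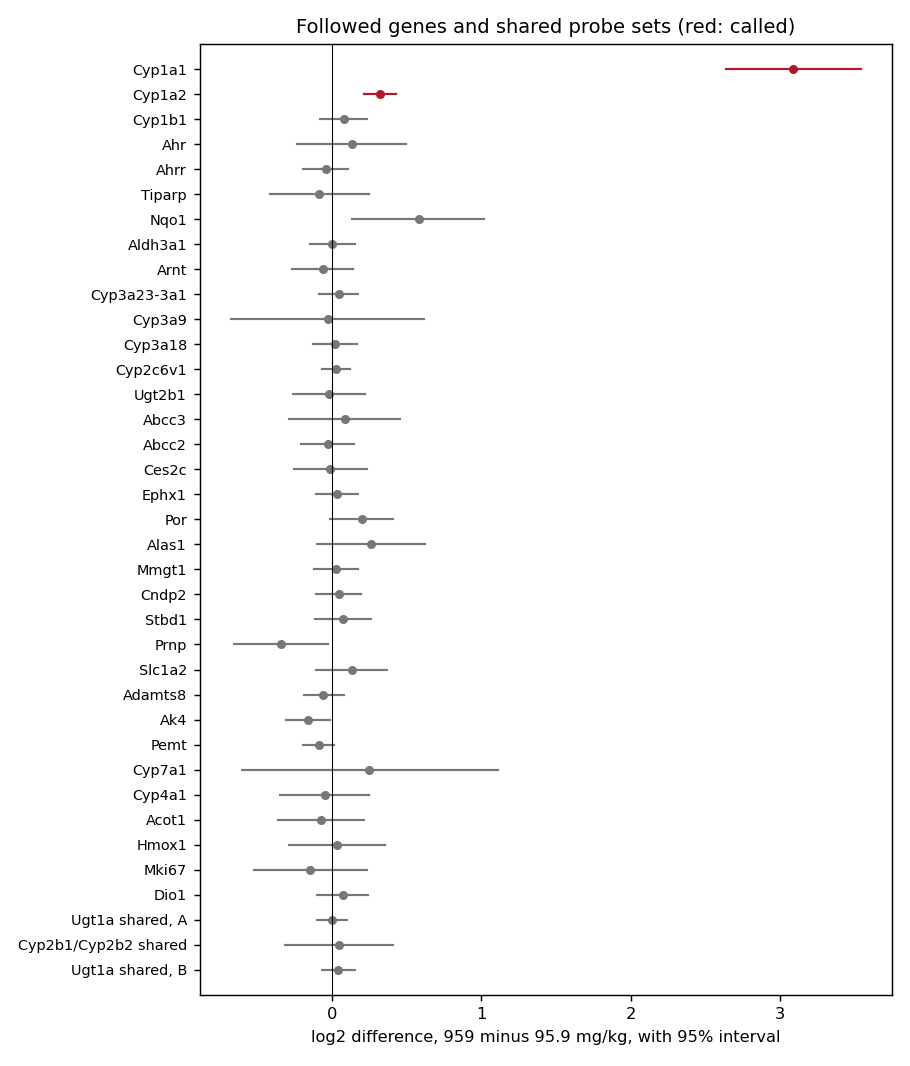
Log2 difference (959 minus 95.9 mg/kg) with its 95% interval for the followed genes and the shared probe sets, drawn in red where called. Cyp1a1 and Cyp1a2 lie clear of 0, while most drug metabolism genes centre near 0 with intervals inside ±0.5.

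5 genes outside drug metabolism had been picked from these same arrays because they were raised at lower doses, so their levels are no independent evidence. Over the top step none passed. Mmgt1 had 0.03, the dipeptidase Cndp2 0.05, the glycogen-binding protein Stbd1 0.08 and the glutamate transporter Slc1a2 0.13. Prnp, the prion protein gene, averaged 7.07 at 959 and 7.42 at 95.9 mg/kg, a difference of -0.34 (SE 0.154, adjusted p = 0.977).

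Beyond Cyp1a1 and Cyp1a2, the gene with the smallest p was Nbea, neurobeachin, a protein of vesicle traffic. Its arrays read 5.35, 5.15, 5.48, 5.59, 5.46 and 5.51 at 959 mg/kg and 5.74, 5.70, 5.68, 5.82, 5.88 and 5.88 at 95.9 mg/kg. All 6 arrays at 959 mg/kg were below all 6 at 95.9 mg/kg, which held for 25 probe sets (0.0805%), while 54 (0.174%) had all 6 above. Its difference was -0.36 (SE 0.0758, adjusted p = 0.355). At the lower doses the Nbea mean was 5.48 for vehicle, 5.51 at 0.1, 5.54 at 0.959 and 5.50 at 9.59 mg/kg, so that the 95.9 mg/kg mean of 5.78 was the highest of the 6 groups and the 959 mg/kg mean of 5.42 the lowest.

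The other genes with the smallest p had adjusted p-values of 0.977. On the higher side, Slc2a4, the insulin-responsive glucose transporter of muscle and fat, averaged 4.54 at 959 and 4.23 at 95.9 mg/kg, a difference of 0.31. Lmod2, a leiomodin of striated muscle, had 0.32, Tmed6 0.30, the glucuronosyltransferase gene Ugt2b34l1 0.36, the sperm glycolytic enzyme Gapdhs 0.27 and LOC100910524 0.24. On the lower side, Rad54l2 averaged 6.36 and 6.89, a difference of -0.53, Ntng1, a netrin-G, had -0.41, Fstl1, a secreted glycoprotein, -0.38, Kif15, a mitotic kinesin, -0.35, coagulation factor F8 -0.29, Zmym4 -0.22 and Ascc2 -0.17. Over all arrays, the mean signals of these genes ran from 3.29 for Tmed6 to 8.07 for Fstl1, on both sides of the median signal of 5.16. Several of these genes are not typical of liver. Different probe sets of 1 gene did not always point the same way: the other probe sets of F8 had -0.34, 0.14, 0.09 and 0.01. The other probe set of Zmym4 had 0.08, that of Rad54l2 -0.01 and that of Slc2a4 0.05. For Fstl1 the others had -0.25 and -0.22, in the same direction as the first, and for LOC100910524 the other had 0.20.

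Markers of stellate cells and matrix, the collagen-producing cells of the liver, leaned lower at 959 mg/kg without any member passing. Of 22 measured, 20 were below 0, against 51.5% of all probe sets above 0, and the median was -0.209. At an unadjusted p under 0.05, 9 were lower and 0 higher, where 1.75% of all probe sets were lower. Col1a2, a chain of type I collagen, read 7.94, 8.15, 7.88, 8.15, 9.42 and 7.98 at 959 mg/kg and 8.66, 8.96, 8.40, 8.29, 9.47 and 9.26 at 95.9 mg/kg. In 5 of 6 arrays at 959 mg/kg the value was below every 95.9 mg/kg array, and in replicate 5 it was near the highest. The Col1a2 difference was -0.59 (SE 0.244, adjusted p = 0.977). Col1a1 had -0.46, Col3a1 -0.33, the smooth muscle protein Tagln -0.64, Sparc -0.38 and the growth factor receptor Pdgfrb -0.26 (its other probe sets had 0.04 each), while Acta2 had -0.06, Lox 0.08 and Ngfr 0.08.

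For the Stellate cell and matrix markers, the mean centred level of the list per array was -0.161, -0.181, -0.273, -0.11, 0.528 and 0.11 at 959 mg/kg and 0.146, 0.308, 0.0071, 0.00741, 0.393 and 0.48 at 95.9 mg/kg. The groups overlapped. By dose it was -0.0975 for vehicle, -0.115 at 0.1, -0.0382 at 0.959, 0.0419 at 9.59, 0.224 at 95.9 and -0.0145 at 959 mg/kg, so the 95.9 mg/kg group was the one farthest from vehicle. Without replicate 1 at 959 mg/kg the list's median was -0.188, with 19 below 0 and 5 at an unadjusted p under 0.05. The part of cell makeup in this difference was not tested.

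Pericentral hepatocytes, which surround the outflow vein and carry most Cyp1a2, were followed through 15 markers. Of these 13 were above 0, against 51.5% of all probe sets, and the median was 0.12. Cyp1a2 passed, which is also an AhR target. The mean centred level of the list per array ran from 0.0673 to 0.186 at 959 mg/kg. At 95.9 mg/kg it ran from -0.062 to 0.0961, so the groups overlapped. Glul, glutamine synthetase of the innermost ring, had a lowest, median and highest array of 11.14, 11.24 and 11.38 at 959 mg/kg and of 10.66, 11.13 and 11.26 at 95.9 mg/kg. The groups overlapped, and 3 arrays at 959 mg/kg were above all at 95.9 mg/kg. The Glul difference was 0.20 (SE 0.0999, adjusted p = 0.977), and its other probe sets had 0.26 and 0.19. Gstm1 had 0.12, Oat 0.18 and Cyp2e1 0.03, while the 2 markers below 0 were Axin2 at -0.14 and Aldh1a1 at -0.02. Without replicate 1 at 959 mg/kg the list had a median of 0.121, 11 above 0 and no call. Of 14 periportal markers 10 were above 0 with a median of 0.0607, and Sds, serine dehydratase, had 0.40 (SE 0.122, adjusted p = 0.977), averaging 6.07 at 959 and 5.67 at 95.9 mg/kg.

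**Figure D4:**
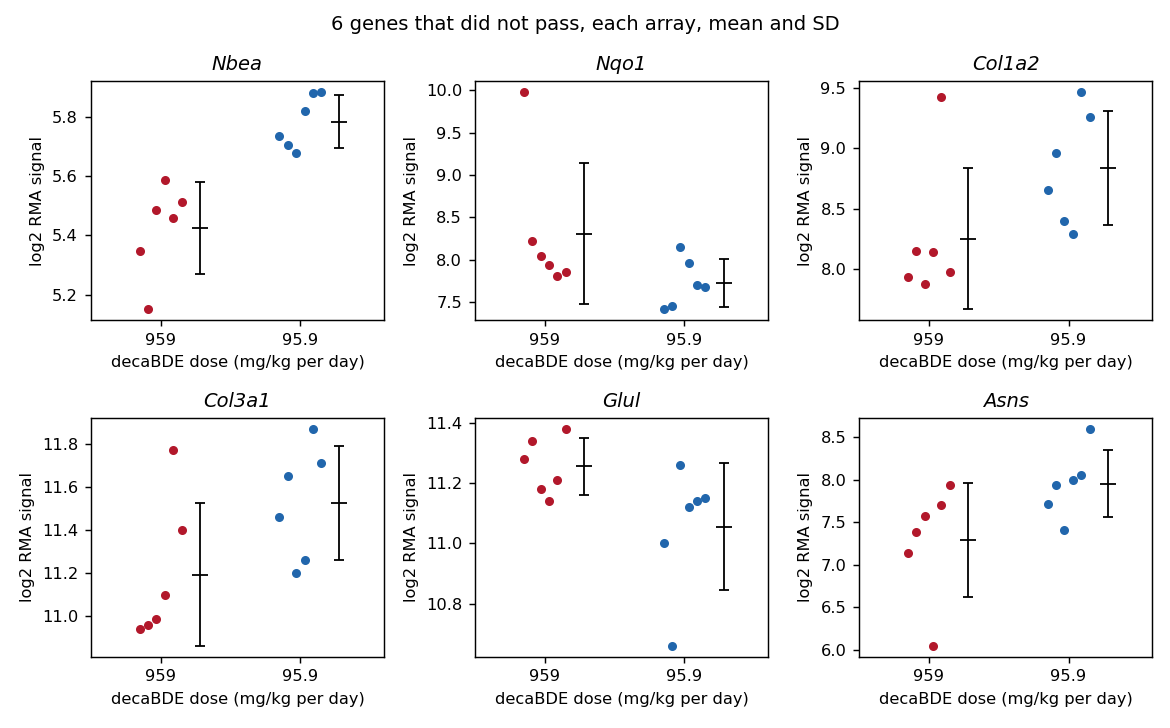
Log2 signal of 6 genes that did not pass, in each array at 959 (left) and 95.9 mg/kg (right), with the mean and SD. Nbea separates the groups, 1 array at 959 mg/kg lies far above the others for Nqo1, and Col1a2, Col3a1, Glul and Asns overlap.

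Other cell types had no called marker, where 0.00644% of all probe sets were called. The median difference was -0.005 for 14 Kupffer cell and macrophage markers, with 6 above 0, and without replicate 1 at 959 mg/kg it was 0.0982, with 12 above 0. The median was -0.0571 for 15 endothelial markers, 0.0879 for 9 cholangiocyte markers, 0.0674 for 16 lymphocyte markers, 0.0215 for 7 neutrophil markers and 0.00431 for 13 erythroid and exocrine pancreas markers. Without replicate 1 at 959 mg/kg the cholangiocyte median was 0.0387, with 5 above 0 where 7 had been. Of the 16 lymphocyte markers 12 were above 0 and 4 below, against 51.5% of all probe sets above 0. Their mean centred level per array overlapped between groups, from -0.154 to 0.191 at 959 and from -0.192 to 0.155 at 95.9 mg/kg. The 2 with the smallest p, the B-cell genes Ms4a1 and Cd79b, had 0.24 and 0.21. Their levels were low, at 5.07 and 5.18 at 959 mg/kg and 4.82 and 4.98 at 95.9 mg/kg. Cd3g and Cd3d had -0.13 and -0.07.

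Metabolic programmes of the liver had no call over the top step, where 0.00644% of all probe sets were called. Targets of PPARA, the fatty acid receptor, had a median of -0.0126 with 19 of 31 below 0. Cyp4a1, its classical target in the rat, averaged 11.26 and 11.30 at 959 and 95.9 mg/kg, a difference of -0.05 (interval -0.344 to 0.252). Cholesterol synthesis had a median of -0.0501 with 15 of 20 below 0, and fatty acid and triglyceride synthesis -0.0439 over 21 genes. Bile acid genes had a median of -0.0075 over 21, and Cyp7a1, the rate-limiting enzyme of bile acid synthesis, had 0.25 with a wide interval of -0.602 to 1.11, and 0.08 without replicate 1 at 95.9 mg/kg or 0.53 without replicate 1 at 959 mg/kg. Gluconeogenesis and fasting genes had a median of 0.0347 over 17.

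Adaptive and stress programmes likewise held no call, with the same share of 0.00644% over all probe sets. NRF2 targets, the antioxidant response, had a median of 0.032 with 16 of 20 above 0, Nqo1 first among them, and haem oxygenase Hmox1 had 0.03 (interval -0.287 to 0.356). Heat shock genes had a median of 0.0246 over 13, and the chaperones Hsph1 and Hspa1a had 0.30 and 0.39, the Hspa1a difference being 0.10 without replicate 1 at 959 mg/kg. Among 18 p53 and DNA damage genes the median was -0.0481 and 12 were below 0, although the 3 with the smallest p were above it, Plk3 at 0.21, Sesn2 at 0.26 and the cell cycle inhibitor Cdkn1a at 0.32. Without replicate 4 at 959 mg/kg Sesn2 had 0.15 and Cdkn1a had 0.12. The 36 cell cycle genes had a median of -0.0128 with 15 above 0, and without replicate 1 at 959 mg/kg a median of 0.0538 with 23 above 0. Mki67, a marker of dividing cells, had -0.14, and -0.01 without that array.

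Genes of endoplasmic reticulum and amino acid stress had a median of 0.0128 over 27, with 18 above 0. Asns, asparagine synthetase, read 7.13, 7.38, 7.57, 6.04, 7.70 and 7.93 at 959 mg/kg and 7.72, 7.93, 7.41, 7.99, 8.05 and 8.60 at 95.9 mg/kg. The groups overlapped, with replicate 4 at 959 mg/kg the lowest, and the difference was -0.66 (SE 0.247, adjusted p = 0.977), or -0.41 without that array. The serine synthesis enzymes Psat1 and Phgdh had -0.45 and -0.38, and the transcription factor Atf4 had -0.21, while Chac1, Atf3 and Edem1 had 0.20, 0.15 and 0.22. The chaperone Hspa5, the marker of the unfolded protein response, had 0.01.

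Thyroid hormone genes had a median of -0.0259 over 14, and the deiodinase Dio1 averaged 7.39 and 7.32 at 959 and 95.9 mg/kg, a difference of 0.07 (interval -0.0965 to 0.24). Acute phase genes had a median of 0.00688 over 21, with the iron hormone Hamp at -0.53 and Il6r at 0.40, or 0.26 for Il6r without replicate 4 at 959 mg/kg. Interferon genes had a median of -0.0113 over 27, which was 0.111, with 22 above 0, without replicate 1 at 959 mg/kg. Clock genes had a median of -0.0351 over 18, with Clock at -0.15 and Per1 at 0.18. Growth hormone and male-specific genes had a median of -0.0207 over 20, and Socs2, a target of growth hormone signalling, had -0.996 (SE 0.656, adjusted p = 0.977), with arrays spread from 5.26 to 8.85 at 959 mg/kg and from 6.35 to 9.12 at 95.9 mg/kg. The male-specific Cyp2c11 had 0.05.

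**Figure D5:**
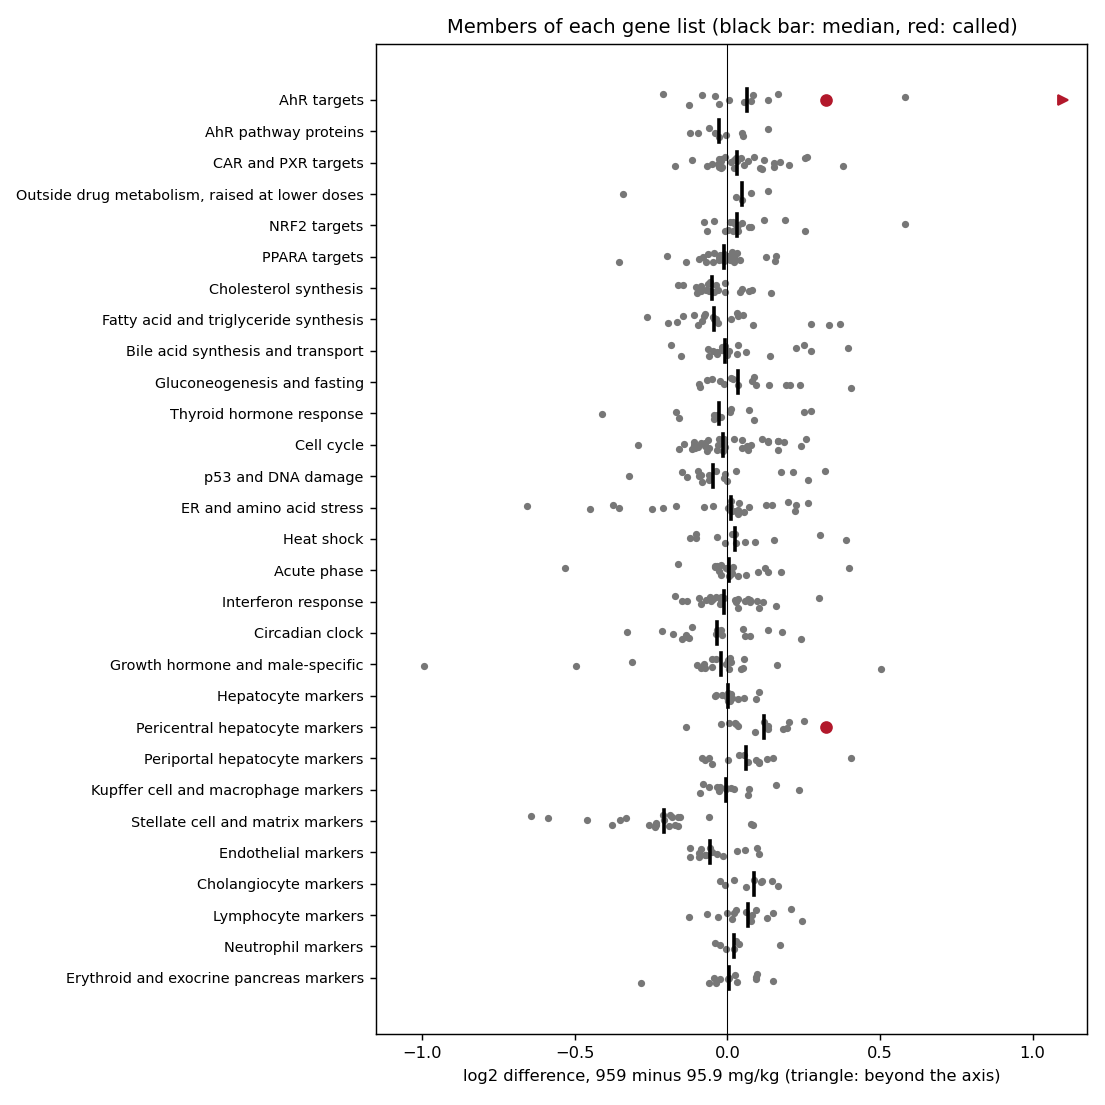
Log2 difference (959 minus 95.9 mg/kg) of each measured member of 29 gene lists, 1 list per line, with a black bar at the median and called genes in red; the triangle is Cyp1a1 at 3.09. Most medians lie close to 0, and the stellate cell and matrix markers at -0.209 lie lowest.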

How the data were processed

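The deposited values were log2 signals, which the authors made by RMA with the affy package, per the submitters' processing notes (version not given in the sources used here). Of the probe sets, 57 array controls were left out. In the platform annotation 20826 probe sets had a single symbol, 436 had several and 9780 had none. A gene is given by its brightest probe set over 36 arrays.

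One linear model per probe set took in all 36 arrays, with a mean for each dose (limma 3.58.1, R 4.3.3, moderated variances, 30 residual and 5.12 prior degrees of freedom). Benjamini-Hochberg adjustment ran over the 31042 probe sets of each contrast. The design text names maanova, for which limma stood in. The comparison, gene lists and followed genes were chosen with earlier results of these data known. Named genes were those called, filled to 8 per direction by p, the top 3 of every list by p, the followed genes and the shared Cyp2b and Ugt1a probe sets. Some further list members are named for their role or size, after their values were seen. Replicate numbers did not pair arrays (correlations -0.133 to 0.0883). The number of arrays limits the precision. In a simulation of this comparison, 50 probe sets were shifted at once by each of 0.25, 0.5, 1 and 2 on the log2 scale. The test found 26% of those shifted by 0.25, 88% of those shifted by 0.5 and 100% of those shifted by 1 or 2. It made 8 false calls in 31042. Many true shifts ease the adjusted threshold, so these shares overstate what is found when few probe sets change, as in the 2 calls here.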

Additional observations from a re-analysis of the deposited data

Results flagged for a closer look

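In 108 groups of 6 arrays examined, 9 had 1 array standing far from the other 5, where chance gives about 5%. At 959 mg/kg these were Nqo1 in replicate 1 (9.98, others 7.80 to 8.22), Ugt2b1 in replicate 2 (12.83, others 13.31 to 13.45), Ak4 in replicate 2 (9.52, others 9.86 to 10.03) and the GAPDH 3' minus 5' difference in replicate 2 (-0.0245, others -0.125 to -0.0924). At 95.9 mg/kg they were Slc2a4 in replicate 3 (4.57, others 4.08 to 4.26), Ugt2b34l1 in replicate 4 (5.90, others 5.42 to 5.56), Abcc3 in replicate 3 (6.74, others 6.09 to 6.32), Cyp7a1 in replicate 1 (9.81, others 10.52 to 10.91) and the actin 3' minus 5' difference in replicate 6 (1.01, others 1.17 to 1.24).

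The Cyp1a1 response also differed between dose steps, since its difference over the top step exceeded that from 0.959 to 9.59 mg/kg by 3.07 on the log2 scale (limma adjusted p = 4.24e-07). Over the top step 6 of 6 arrays at 959 mg/kg were above every array at 95.9 mg/kg, as for 54 probe sets (0.174%).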

How the results depend on the processing

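The count of 2 called probe sets became 1, Cyp1a1, with only the 12 compared arrays in the fit and with a log2 change of at least 0.5 required, and it ranged from 1 to 2 when each array was left out. Cyp1a1 alone was called without replicate 1 or 2 at 959 mg/kg and without replicate 1, 2 or 5 at 95.9 mg/kg. The top step minus the upper step gave 0 calls under all alternatives run (0 to 0 with each array left out). The top step minus the step from 0.959 to 9.59 mg/kg gave 1 call, and 1 to 2 with each array left out: without 0.959 mg/kg replicate 1 there were 2, the second an unnamed probe set. With the replicate number as a block, these counts were 2, 0 and 1, unchanged, and 1 of 6 arrays correlated best with its own number. The difference in array median, 0.00942, ranged from 0.00664 to 0.0122 with each array left out, and its exact permutation p was 0.0325 without 959 mg/kg replicate 6, against 0.0996 with all 12.

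Of 125 named genes and shared probe sets, 93 were run under 22 alternatives and 32 under 21, 1 of them (without 0.1 mg/kg replicate 6, which stands apart) chosen after seeing the data. None of the 123 that did not pass was called under any, and 17 changed sign in at least 1. With each array left out, 84 of the 123 had a difference that moved by over 1.5 times or changed sign. The list medians without 959 mg/kg replicate 1 were also chosen after seeing the data. Changes well under 0.5 on the log2 scale are poorly resolved by 6 arrays per dose.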

Other observations

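A few probe sets varied widely between arrays of 1 dose, and these were chosen after their values were seen. An SD of at least 1.5 in either group was found for 14 probe sets. Ugt2b, a glucuronosyltransferase gene, read 5.54 in replicate 2 at 959 mg/kg and 13.18 to 13.43 in the other 5, against 12.96 to 13.44 at 95.9 mg/kg. A second Ugt2b probe set read 3.16 in the same array and 9.19 to 10.16 in the others, against 8.97 to 10.18 at 95.9 mg/kg. In that array Ugt2b1, another glucuronosyltransferase gene, was also the lowest of its group, at 12.83.

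Abhd3, a phospholipase of the abhydrolase family, fell into separate levels in both groups. Its arrays read 3.11, 3.33, 3.50, 3.12, 7.62 and 7.62 at 959 mg/kg and 8.43, 7.47, 3.38, 3.28, 7.74 and 3.16 at 95.9 mg/kg. High and low arrays thus occurred at both doses.

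Socs2 and Bcl6, both linked to growth hormone pulses in male rat liver, spread widely between arrays, and how they vary together was not tested. At 959 mg/kg Socs2 read 8.85, 8.55, 5.26, 5.37, 6.08 and 8.01 in replicates 1 to 6, where Bcl6 read 6.06, 7.82, 10.15, 10.20, 9.06 and 6.38. At 95.9 mg/kg Socs2 read 8.12, 7.90, 8.12, 6.35, 8.48 and 9.12, and Bcl6 read 7.42, 9.49, 8.23, 8.99, 5.41 and 7.11. Their differences over the top step were -0.996 and 0.50, with adjusted p-values of 0.977 and 0.984.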
